A study of Bos taurus with 8 samples.

Results

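Solute carriers are membrane proteins that move amino acids, sugars, ions, metals, vitamins and nucleotides across the plasma membrane and the membranes of organelles. The genes described here were chosen by symbol and by detection: a probe's accession had to map to a gene named SLC, a number, a letter and a number, and all arrays of 1 group or more had to show the probe well above background. SLC2A1, SLC2A3, SLC16A3 and SLC4A1 were left out by that rule. Of 266 such genes on the array, 152 met the detection rule and 114 did not, and these 152 are among the 15137 genes tested in all.

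The samples were peripheral blood mononuclear cells (PBMCs), that is lymphocytes and monocytes, from cattle of 3 groups: lame crossbred cattle, normal crossbred cattle and normal cattle of Tharparkar, a zebu breed of India. The Cy3-labelled RNA was measured on 8 Agilent bovine arrays of 1 colour, 4 for the lame group and 2 for each normal group. The labels give no age, treatment, cause of lameness or number of cows, and do not say whether cows were pooled. Per the labels' protocols the RNA samples were run as technical duplicates, and by their titles the arrays were read as 4 RNA samples: lame R1 (arrays R1_1 and R1_2), lame R2 (arrays R2_1 and R2_2), 1 normal crossbred and 1 normal Tharparkar. All p-values therefore rest on the spread between arrays, which is partly technical, and do not measure the spread between cows. No lame Tharparkar group was among the samples, so lameness was compared within the crossbred animals and breed within the normal animals.

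In blood cells, amino acid carriers such as SLC7A5, which works as a pair with SLC3A2, and SLC1A5, a glutamine carrier, feed protein synthesis and growth after activation. SLC11A1 pumps metal ions out of the phagosome of phagocytes and SLC40A1 exports iron from the cell. SLC25 carriers link the mitochondrial matrix to the cytosol, and SLC35 carriers supply the Golgi apparatus and endoplasmic reticulum with nucleotide sugars for glycosylation.

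Levels are log2 of the processed signal relative to the 75th percentile of the array, so 0 is the level of that percentile, and differences between groups are log2 fold changes with their standard error (SE). Levels of different genes come from different probes and were not set against each other. Calls needed an adjusted p under 0.05 (limma, Benjamini-Hochberg over all 15137 genes).

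Detection is given by substrate class, and differences between classes were not tested. Classes were set by SLC family, so a member counts with its family whatever its own substrate. Of the mitochondrial SLC25 carriers, 28 of the 37 on the array met the rule, as did 24 of 30 metal and haem carriers, 16 of 23 carriers of nucleotide sugars and acetyl-CoA, and 13 of 20 carriers of vitamins, choline and nucleosides. The share was lower for amino acid carriers with 23 of 45 and sugar and carboxylate carriers with 16 of 36. It was also lower for carriers of inorganic ions with 15 of 35, and of peptides, phosphate and organic ions with 17 of 40. Of the 152 members, 124 were well above background on all 8 arrays. The other 28 entered through fewer groups: 6 through the lame arrays alone, 6 through the normal crossbred arrays alone, 2 through the Tharparkar arrays alone and 14 through 2 groups. Such genes had to differ between groups to be uneven in detection, so counts over all 152 members describe these arrays and support nothing by themselves. Just inside the rule, SLC22A31 had a mean level of -3.93 in the group that admitted it and SLC5A7 one of -3.89. Just outside it, SLC17A5 was well above background on 3 lame arrays and on 1 array of each normal group, with a highest group mean of -3.52. Among the 114 genes that did not meet the rule, 60 had no array well above background.

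Some facts of the arrays bear on what follows. Between 52.8% and 61.5% of all probes were well above background on an array, except for lame R2_2 with 70.9%, which also had the brightest negative controls. Each of the 2 slides held arrays of all 3 groups. Across all genes tested, duplicates correlated at 0.981 to 0.997, lame R1 with lame R2 arrays at 0.951 to 0.970, and between groups the range was 0.931 to 0.966. T cell and monocyte markers were present in all groups, with FCGR1A the only monocyte marker on the array that was never above background. The summed linear signal of 10 monocyte markers, in units of the array's 75th percentile, was 72.5 to 87.7 on the lame arrays, 42.1 to 42.2 on the normal crossbred arrays and 62.8 to 64.7 on the Tharparkar arrays. The monocyte markers went both ways: against normal crossbred arrays the lame arrays had 4 of the 10 higher (C1QA, C1QB, C1QC and CSF1R) and CD14, a defining marker, lower by 1.56 (limma, adjusted p = 0.0229). The summed signal of 11 T cell markers was 105 to 130, 177 to 190 and 99.2 to 99.8 in the same order of groups. That of 9 natural killer (NK) cell markers was 45.9 to 88.9, 144.5 to 155.7 and 60.8 to 65. Of these 9, 4 were lower and 0 higher in lame against normal crossbred arrays. Granulocyte markers were also present, although PBMC preparation is meant to remove those cells, and the sum of 12 of them was 155 to 202, 230 to 243 and 255 to 265. In lame against normal crossbred arrays 6 of those 12 were lower and 0 higher, with a median difference of -1.69, among them CXCR1 (-3.82), CXCR2 (-3.33) and TGM3 (-2.95), whereas the bright S100A8 (-0.29) and S100A12 (-0.11) were not called. Against Tharparkar arrays 7 were lower in lame arrays, with a median of -2.0. Of all genes, 3.30% were called higher and 6.32% lower in lame against normal crossbred arrays, and 10.8% lower in lame against Tharparkar arrays. In bulk RNA, fewer cells of a type and less RNA per cell cannot be told apart. The part of these cell mixtures in the carrier differences below was not tested.

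**Figure D1:**
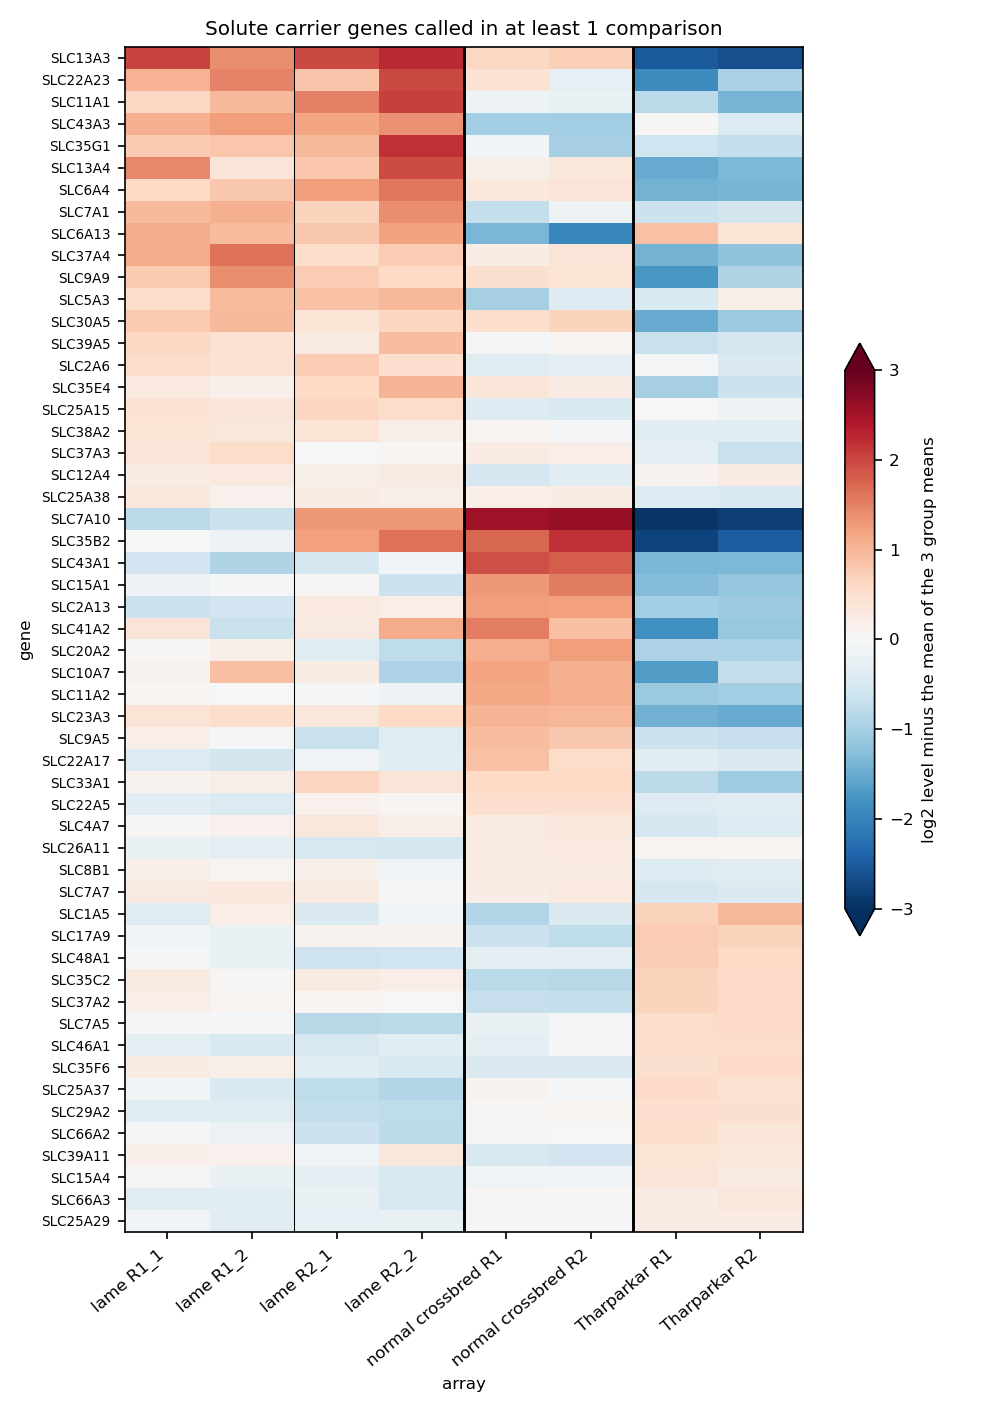
Each line is one of 54 of the 56 solute carrier genes called in at least 1 comparison and each column is an array. Colour gives the log2 level minus the mean of the 3 group means, cut at 3 in both directions, and genes are sorted by the group with the highest mean. In most genes the arrays of a normal pair have like colours, whereas the lame R1 and R2 arrays differ from each other in genes such as SLC7A10.

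In lame against normal crossbred arrays, 12 members were higher and 9 were lower, that is 7.89% and 5.92% of the 152 members. Over all genes tested, 3.30% were called higher and 6.32% lower, and 9.61% were called in either direction against 13.8% of the members. The median difference was 0.06 over the members and -0.04 over all genes. The leading higher genes were SLC6A13, a carrier of the amino acid GABA, SLC43A3, a purine nucleobase carrier, SLC5A3, which imports myo-inositol, SLC7A1, the cationic amino acid carrier for arginine and lysine, and SLC13A3, a dicarboxylate carrier. The leading lower genes were SLC43A1, a carrier of large neutral amino acids, SLC15A1, a peptide carrier, SLC2A13, a second myo-inositol carrier, SLC20A2, a phosphate carrier, and SLC11A2, the iron importer also known as DMT1. All 21 called genes had arrays that did not overlap between the groups. The calls used the same values, so this adds no support to them. The count rested on the normal crossbred pair: it was 3 without either of those arrays, 13 without either Tharparkar array, which enter only through the shared spread, and 28 without lame R2_2. SLC43A1, SLC43A3 and SLC6A13 were called in all 8 fits that left out 1 array. With the RNA sample as a random block 0 of the 21 were called (17 members had an unadjusted p under 0.05), and with duplicates averaged 2 members were. Quantile scaling gave 8 higher and 12 lower and normexp, another background correction, 3 and 5. Under normexp all 21 differences kept their sign, and 12 were smaller by over 1.5 times. Taken within each of the 2 slides, the differences of the 21 genes changed by a median of 0.15 and by at most 0.69 between slides. Their sign could not change, since the arrays of these genes did not overlap between the groups.

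Which group stood apart differed between these genes. In 6 of the 12 higher genes (SLC13A3, SLC25A15, SLC2A6, SLC43A3, SLC5A3 and SLC7A1) all 4 lame arrays lay above the arrays of both normal groups, although with normexp the difference from Tharparkar turned negative in SLC25A15, SLC43A3, SLC5A3 and SLC7A1. In the other 6 (SLC6A13, SLC35C2, SLC37A2, SLC17A9, SLC39A11 and SLC12A4, the last named after its values were seen) the normal crossbred arrays lay below both other groups, and the lame arrays lay within or below the Tharparkar range or overlapped it. All 9 lower genes had normal crossbred arrays above both other groups, and only SLC26A11 also had lame arrays below both. Over all 152 members, the lame arrays lay above both normal groups in 21 genes and below both in 10, against 7.00% and 10.2% of all genes. The normal crossbred arrays lay above both other groups in 20 members and below both in 25, against 15.3% and 9.75% of all genes.

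SLC43A3 met the detection rule through the lame arrays alone, so it had to be uneven. Its level was -2.90 and -2.70 on the lame R1 arrays and -2.78 and -2.59 on the lame R2 arrays. It was -4.97 and -4.99 on the normal crossbred arrays and -3.92 and -4.36 on the Tharparkar arrays. The lame arrays thus lay above all others, the normal crossbred arrays below all others, and both lame RNA samples gave the same level. Its only probe was not well above background on either normal crossbred array, and the lame mean was at least 3.96-fold higher than the limit there (log2 fold change 2.24, SE 0.17, adjusted p = 0.00066). That log2 fold change was 1.33 with quantile scaling and 0.52 with normexp. Against the Tharparkar arrays the lame arrays were 1.4 higher (SE 0.17, adjusted p = 0.00201), a difference that turned to -0.25 with normexp.

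SLC7A1 also met the rule through the lame arrays alone, with 1 normal crossbred and 0 Tharparkar arrays well above background. It measured -3.37 and -3.27 on the lame R1 arrays and -3.68 and -2.94 on the lame R2 arrays. The normal crossbred arrays gave -5.04 and -4.48 and the Tharparkar arrays -4.99 and -4.90. No normal array reached the lowest lame array, and the 2 normal groups overlapped. The lame mean was 1.45 higher than the normal crossbred mean (SE 0.24, adjusted p = 0.0132), a call lost without either normal crossbred array (adjusted p up to 0.165), and the difference was 0.45 with quantile scaling and 0.24 with normexp. Against Tharparkar the lame mean was at least 1.98-fold higher (adjusted p = 0.00422), a call lost without Tharparkar R1 (adjusted p = 0.0534), and that log2 fold change of 1.63 became -0.31 with normexp.

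SLC5A3 showed the same order, with -2.79 and -2.35 on lame R1, -2.42 and -2.33 on lame R2, -4.30 and -3.70 on the normal crossbred arrays and -3.76 and -3.13 on the Tharparkar arrays. The lame arrays were 1.53 above the normal crossbred arrays (SE 0.26, adjusted p = 0.0135; up to 0.167 without a normal crossbred array), and the normal groups overlapped. With quantile scaling this difference was 0.84 and with normexp 0.36. SLC2A13, the other myo-inositol carrier, went the opposite way: -1.54 and -1.47 on lame R1, -0.61 and -0.69 on lame R2, 0.37 and 0.32 on normal crossbred and -1.92 and -1.99 on Tharparkar arrays. Its lame mean was 1.42 below the normal crossbred mean (SE 0.30, adjusted p = 0.0286; up to 0.227 with 1 array left out), and the lame R1 and R2 samples did not overlap each other.

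SLC2A6, a sugar carrier of lysosomal membranes, had levels of 2.07 and 1.95 on lame R1, 2.29 and 2.03 on lame R2, 1.17 and 1.23 on normal crossbred and 1.48 and 1.09 on Tharparkar arrays. The lame arrays were 0.89 above the normal crossbred arrays (SE 0.17, adjusted p = 0.0206; up to 0.213 without a normal crossbred array), and a second kept probe gave 1.32. That second probe differed by 0.10 between lame and Tharparkar arrays, where the brighter probe gave 0.80. SLC25A15, the mitochondrial ornithine carrier of the urea cycle, measured -1.79 and -1.88 on lame R1, -1.59 and -1.68 on lame R2, -2.60 and -2.68 on normal crossbred and -2.25 and -2.37 on Tharparkar arrays. Its lame mean was 0.91 above the normal crossbred mean (SE 0.14, adjusted p = 0.0102; up to 0.139 without a normal crossbred array), with the same difference of 0.91 on its second probe, but 0.59 with quantile scaling and 0.51 with normexp. It was the only mitochondrial carrier called in this comparison.

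SLC6A13 stood for the second kind of gene, in which the normal crossbred arrays were apart. It measured -1.84 and -2.02 on lame R1, -2.14 and -1.76 on lame R2, -4.33 and -4.92 on normal crossbred and -2.08 and -2.56 on Tharparkar arrays. Lame and Tharparkar arrays overlapped, and both lay far above the normal crossbred pair. The lame mean was 6.42-fold higher than the normal crossbred mean (log2 fold change 2.68, SE 0.23, adjusted p = 0.00106). The probe was well above background on 1 of the 2 normal crossbred arrays, and the log2 fold change was 0.72 with normexp. SLC35C2, a Golgi carrier linked to fucosylation, gave 0.68 and 0.45 on lame R1, 0.68 and 0.60 on lame R2, -0.39 and -0.42 on normal crossbred and 1.09 and 0.98 on Tharparkar arrays. Here the lame arrays lay between the normal groups, 1.01 above the normal crossbred arrays (SE 0.14, adjusted p = 0.00563; up to 0.0946 without a normal crossbred array). SLC37A2, a sugar phosphate exchanger of myeloid cells, had the same order at 0.78 above normal crossbred (SE 0.13, adjusted p = 0.013), as had SLC17A9, the vesicular nucleotide carrier, at 0.69 (SE 0.15, adjusted p = 0.0313; 0.46 with quantile scaling and 0.36 with normexp). Both calls were lost without either normal crossbred array (adjusted p up to 0.161 and 0.268), and the monocyte marker sum was also lowest in that group, whereas CD14 was lower in the lame arrays.

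Among the lower genes, SLC43A1 measured -2.63 and -2.97 on lame R1, -2.58 and -2.14 on lame R2, -0.11 and -0.23 on normal crossbred and -3.42 and -3.40 on Tharparkar arrays. The normal crossbred pair was alone at the top, and the lame arrays lay between the 2 normal groups. The lame mean was 5.31-fold lower than the normal crossbred mean (log2 fold change -2.41, SE 0.22, adjusted p = 0.00137; -1.5 with normexp). SLC11A2 gave -0.96 and -1.0 on lame R1, -1.08 and -1.17 on lame R2, 0.14 and 0.07 on normal crossbred and -2.13 and -2.05 on Tharparkar arrays, with 4 tight pairs of duplicates. Its lame mean was 1.16 below the normal crossbred mean (SE 0.13, adjusted p = 0.00309; up to 0.0697 without a normal crossbred array), and its 5 kept probes ranged from -1.16 to -0.01.

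The remaining lower genes were smaller or less firm. By its brightest probe SLC15A1 was lower by 1.64 in lame arrays (SE 0.22, adjusted p = 0.00559), whereas a second kept probe differed by -0.05. With normexp the difference was -1.0 in SLC15A1, -0.76 in SLC20A2 and -0.69 in SLC22A17. SLC20A2 was lower by 1.4 (SE 0.26, adjusted p = 0.019), SLC9A5, a sodium-proton exchanger, by 1.08 (SE 0.24, adjusted p = 0.0349), and SLC22A17, a receptor for lipocalin-2, by 1.07 (SE 0.17, adjusted p = 0.0121). SLC26A11, an anion carrier, measured 1.21 and 1.15 on lame R1, 0.95 and 0.88 on lame R2, 1.70 and 1.72 on normal crossbred and 1.49 and 1.5 on Tharparkar arrays, so it was lowest in the lame arrays. Its difference from normal crossbred was -0.66 (SE 0.15, adjusted p = 0.0354). SLC23A3, a relative of the ascorbate carriers, differed by -0.54 (SE 0.14, adjusted p = 0.0491). All 6 of these calls were lost in at least 2 of the 8 fits that left out 1 array, each time including both fits without a normal crossbred array.

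**Figure D2:**
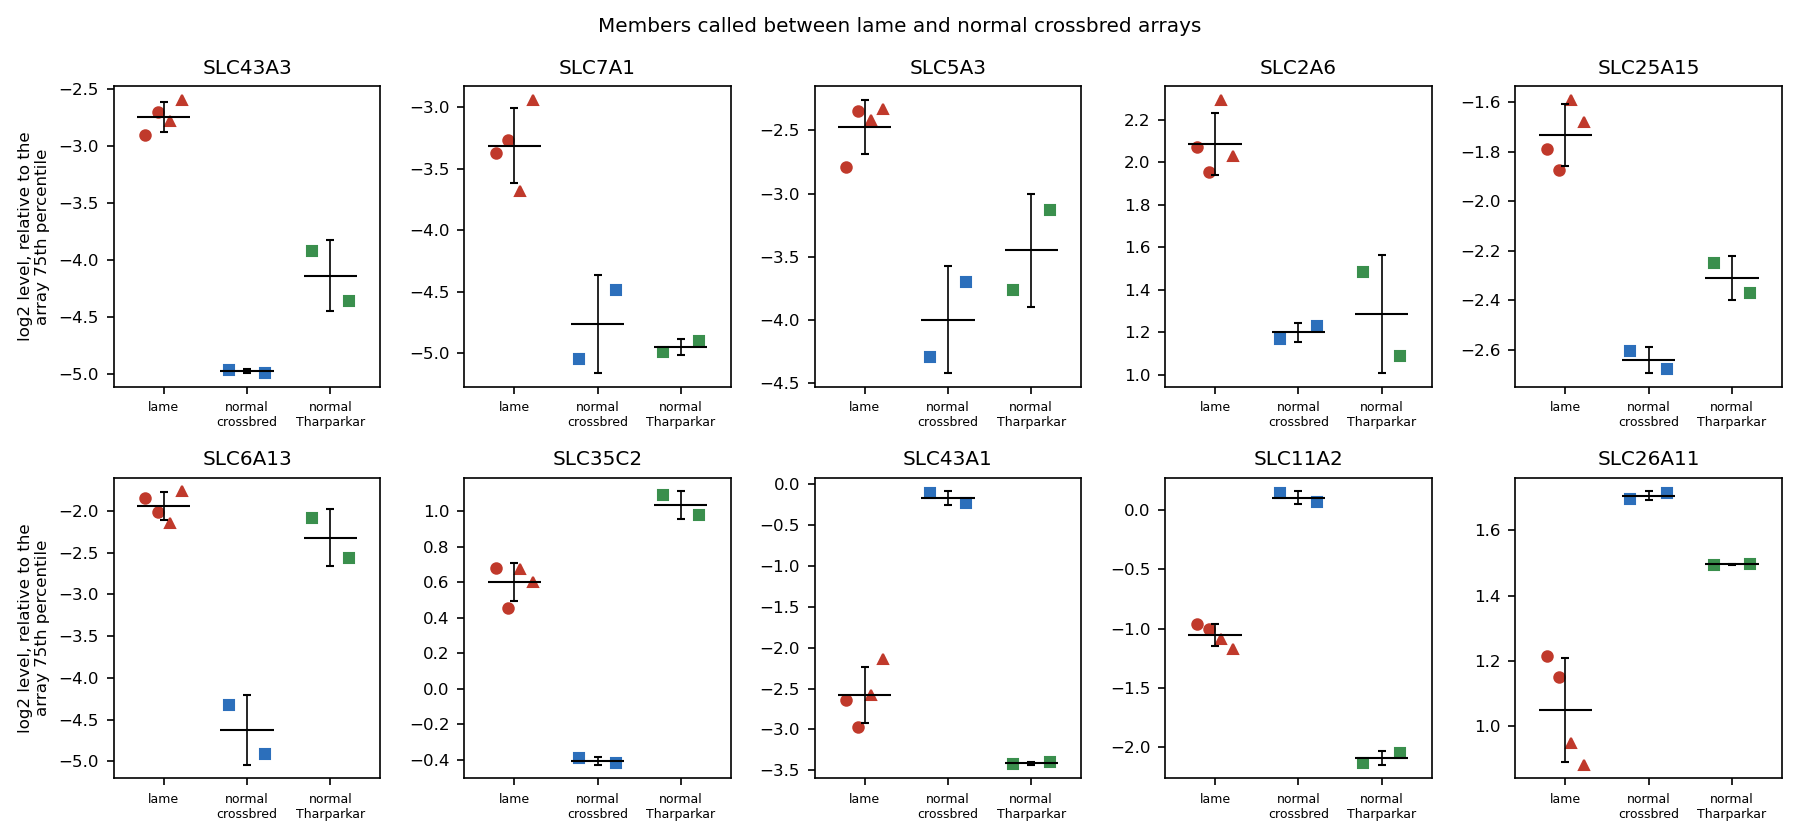
Points are the log2 level of each array relative to its 75th percentile, for 10 members called between lame and normal crossbred arrays; circles are lame R1, triangles lame R2 and squares the normal arrays. Lines and bars are the mean and SD over arrays, which include technical duplicates. In the first 5 genes the lame arrays lie above both normal groups (with normexp not above Tharparkar in SLC43A3, SLC7A1, SLC5A3 and SLC25A15), and in SLC6A13, SLC35C2, SLC43A1 and SLC11A2 the normal crossbred pair lies apart from the rest.

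Of the members that did not reach the threshold between lame and normal crossbred arrays, SLC11A1 differed by 1.48 (95% interval 0.56 to 2.40, adjusted p = 0.0601). Its level was -2.43 and -2.09 on lame R1, -1.53 and -0.99 on lame R2, -3.22 and -3.26 on normal crossbred and -3.87 and -4.45 on Tharparkar arrays. The lame arrays lay above both normal groups, with R2 above R1, and the difference from Tharparkar was called at 2.40 (SE 0.39, adjusted p = 0.00591; 0.0695 without Tharparkar R2). The monocyte sums were likewise highest in the lame arrays but lower in normal crossbred than in Tharparkar arrays, which is not the order of SLC11A1, and CD14 was lower in lame arrays. With normexp its difference from Tharparkar was 0.10. SLC28A3, a nucleoside carrier, was well above background on both normal crossbred arrays and on no lame array, at least 1.96-fold higher in the former, with an adjusted p of 0.0777.

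In normal crossbred against normal Tharparkar arrays, 25 members were higher and 12 lower, 16.4% and 7.89% of the members against 11.7% and 6.91% of all genes. In either direction the share was 24.3% of the members against 18.6% of all genes. The median difference was -0.08 over the members and 0.01 over all genes. The leading higher genes were SLC7A10, a small neutral amino acid exchanger, SLC35B2, which brings the sulphate donor PAPS into the Golgi, SLC13A3 and SLC43A1. Lower genes included SLC6A13, SLC1A5 and SLC35C2. All 37 called genes had arrays that did not overlap, which again adds no support to the calls. By the reading of the titles above this comparison sets 1 RNA sample against 1, so leaving out an array of a normal group tests technical duplicates and says nothing of the spread between animals. With the RNA sample as a random block 3 members were called, and with duplicates averaged 8. Under normexp 4 of the 37 differences changed sign and 19 others were smaller by over 1.5 times. With 2 arrays a group the count was 15 or 16 without any one normal array and 49 without lame R2_2, and 15 of the 37 genes were called in all 8 fits that left out 1 array. This comparison shares its normal crossbred arrays with the one above, so a gene that sets that pair apart counts in both. Within slides the 37 differences changed by a median of 0.11, at most 1.34, and without overlap of the arrays their sign could not change.

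SLC7A10 measured -1.12 and -1.03 on the normal crossbred arrays and -6.57 and -6.47 on the Tharparkar arrays. On the lame arrays it was -4.47 and -4.31 for R1 and -2.36 and -2.35 for R2. Each RNA sample thus held its own level, and the 2 lame samples differed by 2.04, the largest gap between them among the 152 members. Its only probe was not well above background on either Tharparkar array, and the normal crossbred mean was at least 9.31-fold higher (log2 fold change 5.44, SE 0.77, adjusted p = 0.0042). With normexp that log2 fold change was 0.84. The lame arrays were 2.29 lower than the normal crossbred arrays without reaching the threshold (adjusted p = 0.0769).

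SLC35B2 had the same pattern, with -1.86 and -1.39 on normal crossbred, -6.35 and -6.09 on Tharparkar, -3.57 and -3.76 on lame R1 and -2.35 and -1.95 on lame R2 arrays. Its only probe was not well above background on the Tharparkar arrays, and normal crossbred exceeded them at least 6.37-fold (adjusted p = 0.00321). Its log2 fold change of 4.59 was 0.38 with normexp. SLC13A3 measured -1.33 and -1.23 on normal crossbred and -4.48 and -4.60 on Tharparkar arrays, against 0.08 and -0.56 on lame R1 and 0.04 and 0.29 on lame R2 arrays. Both crossbred groups lay far above the Tharparkar pair, the lame arrays highest: normal crossbred was at least 8.10-fold above Tharparkar (adjusted p = 0.000644) and lame at least 19.1-fold above it (adjusted p = 9.46e-05). With normexp the log2 fold change between normal crossbred and Tharparkar fell from 3.26 to 0.53. The lame excess over normal crossbred was 1.24 (0.78 with normexp; SE 0.24, adjusted p = 0.0206; up to 0.203 with 1 normal array left out). A second SLC13A3 probe, outside the detection rule, gave differences of 0.62 between lame and normal crossbred and 0.85 between normal crossbred and Tharparkar arrays.

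Several genes placed the crossbred groups together above Tharparkar. SLC30A5, which loads zinc into the Golgi, measured -0.19 and 0.02 on lame R1, -0.56 and -0.32 on lame R2, -0.42 and -0.29 on normal crossbred and -2.48 and -2.04 on Tharparkar arrays. Lame and normal crossbred arrays overlapped, and the normal crossbred mean was 1.90 above Tharparkar (SE 0.24, adjusted p = 0.00269; 0.82 with normexp). SLC7A7, an exchanger of cationic and neutral amino acids, was 0.73 above Tharparkar in normal crossbred arrays (SE 0.17, adjusted p = 0.0266), SLC4A7, a sodium bicarbonate carrier, 0.75 (SE 0.16, adjusted p = 0.0196) and SLC25A38, which brings glycine into mitochondria for haem synthesis, 0.64 (SE 0.15, adjusted p = 0.0231; -0.07 on a second kept probe). The calls for these 3 genes were lost without any one normal array, with adjusted p-values up to 0.17.

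In others the normal crossbred pair lay above both other groups. Of these, SLC43A1, SLC11A2, SLC23A3, SLC15A1, SLC2A13 and SLC20A2 also had Tharparkar arrays below both other groups. In SLC23A3 the lame mean was 0.54 below normal crossbred and 1.95 above Tharparkar. SLC43A1 was 9.46-fold higher in normal crossbred than in Tharparkar arrays (log2 fold change 3.24, SE 0.26, adjusted p = 0.000553), SLC11A2 4.58-fold (2.19, SE 0.15, adjusted p = 0.000317) and SLC23A3 5.64-fold (2.50, SE 0.16, adjusted p = 0.000225). With normexp these 3 log2 fold changes were 1.13, 1.04 and 0.79. SLC11A2 probes had the same direction, from 0.81 to 3.39 over the 5 kept. SLC15A1 differed by 2.66 (SE 0.25, adjusted p = 0.000918) with 1.03 on its second probe, SLC2A13 by 2.30 (SE 0.35, adjusted p = 0.00518), SLC20A2 by 2.11 (SE 0.30, adjusted p = 0.00435), SLC9A5 by 1.53 (SE 0.28, adjusted p = 0.0107) and SLC22A17 by 1.1 (SE 0.20, adjusted p = 0.0109). SLC22A5, the carnitine carrier, differed by 0.86 (SE 0.22, adjusted p = 0.0351). With normexp SLC15A1 differed by 0.66, SLC2A13 by 1.29, SLC20A2 by 0.42, SLC22A17 by 0.65 and SLC22A5 by 0.49. Those of SLC9A5, SLC22A17 and SLC22A5 were lost without any one normal array (adjusted p up to 0.179), while SLC15A1, SLC2A13 and SLC20A2 kept theirs in all 8 fits.

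SLC41A2, a magnesium carrier, and SLC10A7, of the bile acid carrier family, were well above background on both normal crossbred arrays and on neither Tharparkar array. They were at least 1.93-fold and 1.94-fold higher (adjusted p = 0.0152 and 0.0288). Their fitted log2 fold changes of 2.70 and 2.32 turned to -0.37 and -0.40 with normexp, and SLC13A4, a sulphate carrier, went from 1.69 to -0.65. The calls of SLC41A2 and SLC10A7 were also lost without any one normal array (adjusted p up to 0.111 and 0.179), and that of SLC13A4 in 6 of 8 fits (up to 0.199). SLC41A2 and SLC10A7 met the detection rule through the normal crossbred arrays alone, and SLC13A4 through the lame arrays alone. These genes thus had to be uneven.

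On the lower side, SLC1A5, the glutamine carrier, gave -1.21 and -0.77 on normal crossbred, 0.36 and 0.66 on Tharparkar, -0.69 and -0.14 on lame R1 and -0.76 and -0.42 on lame R2 arrays. Tharparkar was apart at the top, and normal crossbred lay 1.5 below it (SE 0.27, adjusted p = 0.00984; up to 0.0868 with 1 normal array left out). SLC6A13 was lower by 2.30 (SE 0.26, adjusted p = 0.00195), SLC35C2 by 1.44 (SE 0.16, adjusted p = 0.00155), SLC17A9 by 1.42 (SE 0.17, adjusted p = 0.00232) and SLC37A2 by 1.33 (SE 0.15, adjusted p = 0.00188). With normexp SLC6A13 differed by -0.93 and SLC17A9 by -0.94. SLC48A1, which moves haem out of lysosomes, was lower by 0.96 (SE 0.23, adjusted p = 0.0281), SLC35F6 by 0.97 (SE 0.27, adjusted p = 0.0459) and SLC39A11, a zinc carrier, by 0.91 (SE 0.18, adjusted p = 0.0146), and these 3 calls were lost without any one normal array (adjusted p up to 0.205).

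**Figure D3:**
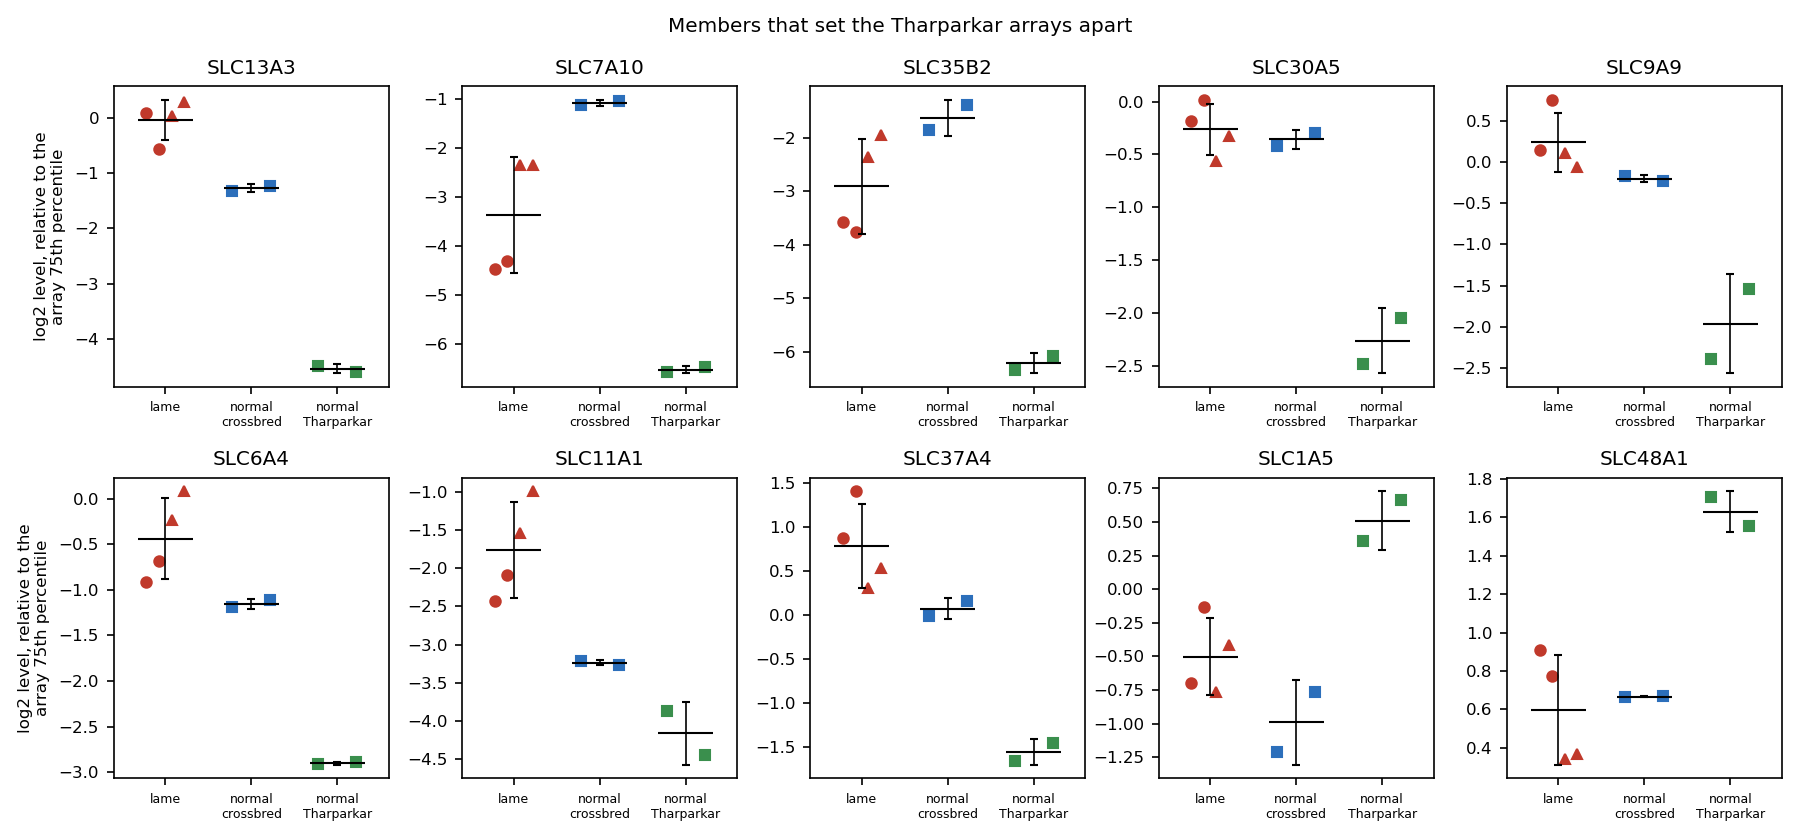
Points are the log2 level of each array relative to its 75th percentile for 10 members; circles are lame R1, triangles lame R2 and squares the normal arrays. Lines and bars are the mean and SD over arrays, which include technical duplicates. The Tharparkar pair lies below both crossbred groups in the first 8 genes and above them in SLC1A5 and SLC48A1, and SLC7A10 and SLC35B2 split the lame R1 from the lame R2 arrays. With normexp the lame excess over Tharparkar in SLC7A10 and SLC35B2 turned negative.

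In lame crossbred against normal Tharparkar arrays, where breed and lameness cannot be told apart, 30 members were higher and 12 lower. These are 19.7% and 7.89% of the members against 12.5% and 10.8% of all genes, and 27.6% against 23.3% in either direction. The median difference was 0.08 over the members and -0.01 over all genes. The count of 42 was 11 or 12 without a Tharparkar array, and 9 genes were called in all 8 fits that left out 1 array: SLC11A2, SLC13A3, SLC22A23, SLC23A3, SLC30A5, SLC37A4, SLC43A3, SLC6A4 and SLC9A9. Quantile scaling gave 24 higher and 16 lower and normexp 14 and 11, and normexp moved the median of all genes from -0.01 to -0.16. Under normexp 15 of the 42 differences changed sign and 15 others were smaller by over 1.5 times. With the RNA sample as a random block 3 members were called. Within slides the 42 differences changed by a median of 0.15, at most 1.03. The arrays of these genes did not overlap between the groups, so the sign could not change. Both comparisons with Tharparkar share that pair of arrays. The Tharparkar arrays lay above both other groups in 29 members and below both in 33, against 19.9% and 20.5% of all genes.

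Of the genes highest in lame and lowest in Tharparkar arrays, SLC6A4, the serotonin carrier that platelets use to take up serotonin, measured -0.91 and -0.69 on lame R1, -0.24 and 0.09 on lame R2, -1.19 and -1.11 on normal crossbred and -2.91 and -2.90 on Tharparkar arrays. The 3 groups did not overlap, and the lame mean was 5.54-fold above Tharparkar (log2 fold change 2.47, SE 0.27, adjusted p = 0.00136; 0.96 with normexp). The summed signal of 5 platelet markers had the same order, at 16.7 to 19.0 on lame, 14.2 to 15.2 on normal crossbred and 9.24 to 9.91 on Tharparkar arrays. Of the 5, 4 were called higher in lame than in Tharparkar arrays, beside 12.5% of all genes. The part of platelet RNA in the SLC6A4 difference was not tested.

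SLC37A4, which carries glucose 6-phosphate into the endoplasmic reticulum, measured 0.88 and 1.4 on lame R1, 0.31 and 0.54 on lame R2, -0.01 and 0.15 on normal crossbred and -1.66 and -1.45 on Tharparkar arrays. The lame mean was 2.34 above Tharparkar (SE 0.30, adjusted p = 0.00229), but a second kept probe gave 0.54. SLC9A9, an endosomal sodium-proton exchanger, gave 0.15 and 0.76 on lame R1, 0.12 and -0.05 on lame R2, -0.17 and -0.23 on normal crossbred and -2.39 and -1.54 on Tharparkar arrays. Its lame mean was 2.21 above Tharparkar (SE 0.30, adjusted p = 0.00299), with 2.03 on its second probe; that probe gave -0.70 between lame and normal crossbred arrays, where the brighter one gave 0.44. SLC30A5 was 2.0 above (SE 0.21, adjusted p = 0.00102), SLC11A2 1.04 (SE 0.13, adjusted p = 0.00233) and SLC23A3 1.95 (SE 0.14, adjusted p = 0.000252). With normexp the differences were 1.43 in SLC37A4, 1.12 in SLC9A9, 0.98 in SLC30A5, 0.12 in SLC11A2 and 0.39 in SLC23A3.

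SLC22A23, SLC13A4, SLC35B2, SLC7A10 and SLC35G1 were well above background on all lame and on no Tharparkar array. Their lame means were at least 2.15-fold, 1.47-fold, 2.62-fold, 1.90-fold and 2.66-fold above the Tharparkar limit, in that order, with adjusted p-values of 0.00369, 0.00487, 0.00518, 0.0152 and 0.0235. With normexp the log2 fold change of each changed sign: SLC22A23 from 2.79 to -0.31, SLC13A4 from 2.59 to -0.56, SLC35B2 from 3.31 to -0.25, SLC7A10 from 3.15 to -0.23 and SLC35G1 from 1.85 to -0.34. Without a Tharparkar array the calls of SLC13A4 (adjusted p up to 0.0571), SLC35B2 (0.0595), SLC7A10 (0.112) and SLC35G1 (0.146) were lost, and SLC22A23 kept its call. SLC29A3, a lysosomal nucleoside carrier, had the same detection pattern, at least 1.55-fold, but did not reach the threshold (adjusted p = 0.106). SLC22A23, SLC13A4 and SLC29A3 met the detection rule through the lame arrays alone, so these genes had to be uneven. SLC13A3 was still 1.31 above Tharparkar in the lame arrays under normexp.

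The 12 genes lower in lame than in Tharparkar arrays had small differences. SLC25A37, mitoferrin-1, which takes iron into mitochondria, measured 5.03 and 4.67 on lame R1, 4.36 and 4.24 on lame R2, 5.21 and 5.07 on normal crossbred and 5.67 and 5.56 on Tharparkar arrays, and was lower by 1.05 (SE 0.23, adjusted p = 0.0185), with -1.16 and -0.20 on its other kept probes. Erythroid markers did not have that order: the sum of 6 of them was 12.3 to 21.8 on lame, 7.48 to 8.63 on normal crossbred and 6.84 to 7.29 on Tharparkar arrays, with CA1 and HBM never above background. SLC29A2, a nucleoside carrier, gave 1.62 and 1.57 on lame R1, 1.18 and 1.17 on lame R2, 1.95 and 1.98 on normal crossbred and 2.43 and 2.41 on Tharparkar arrays. It was lower by 1.04 (SE 0.18, adjusted p = 0.00737), and its dimmer second probe differed by -0.21; between lame and normal crossbred arrays the probes gave -0.58 and 1.61. SLC48A1 was lower by 1.03 (SE 0.20, adjusted p = 0.0114), SLC1A5 by 1.01 (SE 0.23, adjusted p = 0.0206), SLC7A5 by 0.98 (SE 0.27, adjusted p = 0.0372) and SLC46A1, a folate carrier, by 0.94 (SE 0.14, adjusted p = 0.0039). With the mean of its 3 kept probes the SLC7A5 difference was -0.52. SLC66A2 was lower by 0.86 (SE 0.23, adjusted p = 0.0377), SLC17A9 by 0.73 (SE 0.15, adjusted p = 0.0137), SLC66A3 by 0.64 (SE 0.13, adjusted p = 0.0149) and SLC15A4, an endolysosomal histidine and peptide carrier, by 0.56 (SE 0.17, adjusted p = 0.0483). The other kept probes of SLC15A4 gave -0.92, -0.48 and -0.03. All 12 calls were lost without either Tharparkar array.

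By substrate class, counts are read beside the shares of all genes called in either direction, 9.61% in lame against normal crossbred, 18.6% in normal crossbred against Tharparkar and 23.3% in lame against Tharparkar arrays. No difference between classes was tested, and levels and differences are those of each gene's brightest kept probe unless another is named. Classes were set by SLC family and not by each member's substrate. SLC43A3 and SLC6A4 thus count with the amino acid carriers, and SLC13A4 with the sugar and carboxylate carriers. The amino acid carriers held 3 higher and 1 lower of 23 in lame against normal crossbred, 4 and 3 in normal crossbred against Tharparkar and 7 and 4 in lame against Tharparkar arrays. SLC7A5 and its partner SLC3A2 were not called between lame and normal crossbred arrays. SLC7A5 measured 4.66 and 4.67 on lame R1, 3.89 and 3.94 on lame R2, 4.51 and 4.68 on normal crossbred and 5.26 and 5.28 on Tharparkar arrays. The difference of -0.30 had a 95% interval of -0.93 to 0.33, and the gap between the lame samples exceeded it, while other kept probes gave 0.00 and 0.77. SLC3A2 lay between 0.73 and 1.35 on all 8 arrays, and its difference from normal crossbred was -0.28 (95% interval -0.72 to 0.17), with 0.66 on a second kept probe. SLC38A2, a carrier of small neutral amino acids, was highest in the lame arrays at 4.62 to 4.85 against 4.38 to 4.49 and 4.12 to 4.13, and was called only against Tharparkar (0.65, SE 0.14, adjusted p = 0.0143; up to 0.122 without either Tharparkar array). SLC1A4, SLC38A9, SLC43A2, SLC6A6 and SLC36A4 were called in no comparison, with differences between -0.88 and 0.91 on the brightest probes. Over all 10 kept probes of these 5 genes the range was -3.95 to 2.97: a second probe of SLC36A4 gave -3.95 between normal crossbred and Tharparkar arrays, and one of SLC38A9 gave 2.97 between lame and Tharparkar arrays.

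Sugar and carboxylate carriers held 4 higher and 1 lower of 16 in lame against normal crossbred arrays, with a median difference of 0.58 beside -0.04 over all genes. SLC16A1, the lactate carrier MCT1, differed by 1.11 without reaching the threshold (95% interval 0.20 to 2.02, adjusted p = 0.123). It measured -1.68 and -1.67 on lame R1, -0.46 and -0.59 on lame R2, -2.19 and -2.23 on normal crossbred and -1.06 and -1.12 on Tharparkar arrays, so the Tharparkar level lay between those of the lame samples. In normal crossbred against Tharparkar arrays the class held 4 higher and 1 lower, and in lame against Tharparkar 6 higher and 1 lower.

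Mitochondrial carriers were the largest class, with 1 call of 28 in lame against normal crossbred, 1 in normal crossbred against Tharparkar, and 2 higher and 2 lower in lame against Tharparkar. Their median size of difference between lame and normal crossbred arrays was 0.22, against 0.32 over all genes. The ADP/ATP carriers SLC25A4, SLC25A5 and SLC25A6 and the phosphate carrier SLC25A3 were called in no comparison. SLC25A6 measured 8.65 and 8.51 on lame R1, 7.22 and 6.98 on lame R2, 8.08 and 7.95 on normal crossbred and 8.03 and 7.50 on Tharparkar arrays, so both extremes were lame samples. Its difference between lame and normal crossbred was -0.17 (95% interval -1.36 to 1.02). Its 3 other kept probes ranged from -1.82 to -1.69 between normal crossbred and Tharparkar arrays and from -1.54 to -1.32 between lame and Tharparkar arrays, where the brightest gave 0.25 and 0.08. SLC25A39, a mitochondrial glutathione carrier, SLC25A28, mitoferrin-2, and SLC25A20, the carnitine-acylcarnitine carrier, were not called either.

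Metal and haem carriers held 1 higher and 1 lower of 24 in lame against normal crossbred, 3 and 2 in normal crossbred against Tharparkar, and 5 and 1 in lame against Tharparkar arrays. The iron exporter SLC40A1 measured 3.22 and 3.14 on lame R1, 4.14 and 4.06 on lame R2, 3.42 and 3.5 on normal crossbred and 2.96 and 2.79 on Tharparkar arrays. The lame samples lay on both sides of the normal crossbred pair, and the difference of 0.18 had a 95% interval of -0.57 to 0.93. SLC30A1, SLC31A1, SLC39A1 and SLC39A14 were called in no comparison, with differences between -0.43 and 0.68 on the brightest probes and between -0.65 and 1.19 over all 6 kept probes.

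Nucleotide sugar and acetyl-CoA carriers held 1 higher and 0 lower of 16 in lame against normal crossbred, 3 and 2 in normal crossbred against Tharparkar, and 4 and 0 in lame against Tharparkar arrays. The CMP-sialic acid carrier SLC35A1, the UDP-galactose carrier SLC35A2, the GDP-fucose carrier SLC35C1 and SLC35B1 were called in none, with differences between -0.43 and 0.26 on the brightest probes and between -1.22 and 1.05 over all 7 kept probes. Inorganic ion carriers held 1 and 2 of 15, 4 and 1, and 3 and 0 in the same order of comparisons. SLC12A2, the sodium-potassium-chloride cotransporter, was called in none.

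Vitamin, choline and nucleoside carriers held 0 higher and 1 lower of 13, then 1 and 1, then 1 and 2. The reduced folate carrier SLC19A1 measured 4.33 and 3.99 on lame R1, 2.84 and 2.64 on lame R2, 2.85 and 2.59 on normal crossbred and 4.58 and 4.43 on Tharparkar arrays. Lame R2 overlapped the normal crossbred arrays and lame R1 lay near the Tharparkar arrays, and no comparison was called. SLC29A1, a nucleoside carrier, was lowest in the lame arrays at -2.75 to -1.20 against -0.85 to -0.84 and -1.13 to -0.97, and its difference of -1.0 from normal crossbred did not reach the threshold (95% interval -1.93 to -0.06, adjusted p = 0.168). SLC44A2, a choline carrier, SLC52A2, a riboflavin carrier, and SLC19A2, a thiamine carrier, were called in none. Carriers of peptides, phosphate and organic ions held 1 and 3 of 17, 5 and 2, and 2 and 2. Phosphate carriers of the SLC20 family count here and not with the inorganic ions. The phosphate carrier SLC20A1 and the fatty acid carriers SLC27A1 and SLC27A4 were called in none.

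**Figure D4:**
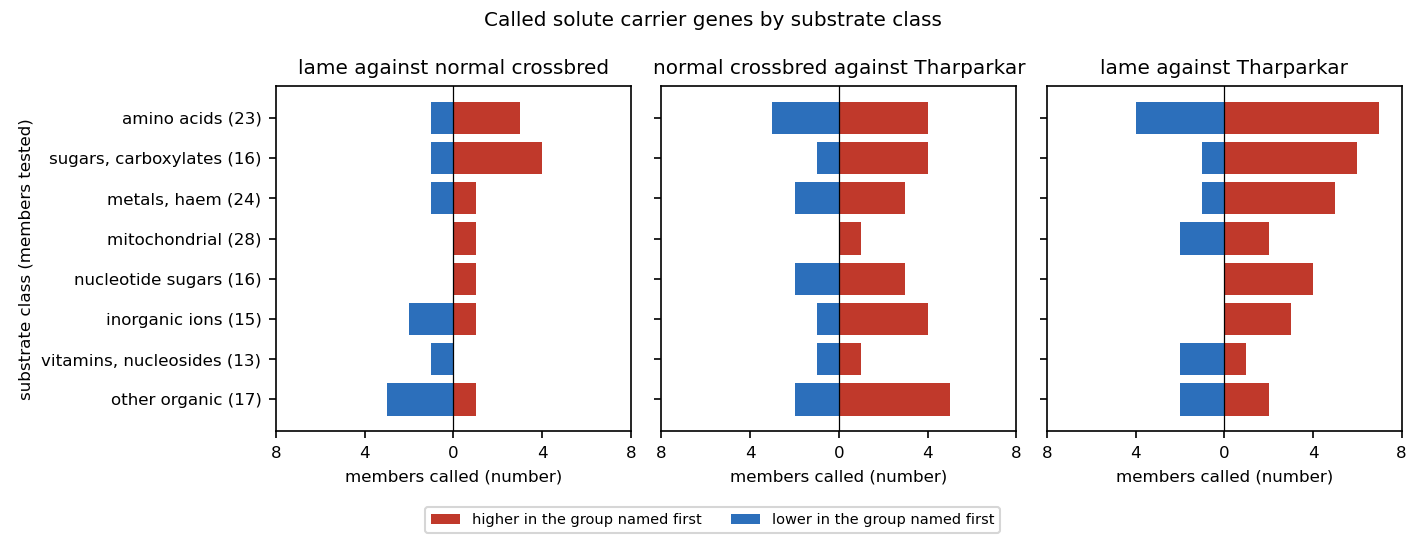
Bars give the number of members called in each comparison by substrate class, to the right when higher and to the left when lower in the group named first; the number tested stands beside each class. Over all genes 9.61%, 18.6% and 23.3% were called in the 3 comparisons, and differences between classes were not tested. Classes were set by SLC family, so SLC43A3 and SLC6A4 count with the amino acid carriers. The 23 amino acid carriers hold 7 higher and 4 lower calls between lame and Tharparkar arrays, and the 28 mitochondrial carriers 2 and 2.

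The 2 lame RNA samples differed from each other in most members. The median size of the gap between lame R1 and lame R2 was 0.47 over the members and 0.50 over all genes, beside a median size of 0.39 for the members' difference between lame and normal crossbred arrays, and in 104 of the 152 members (68.4%) the arrays of the 2 samples did not overlap, as in 77.0% of all genes. In 82 members (53.9%) the gap was larger than the difference between lame and normal crossbred arrays, as in 62.4% of all genes. It was at least 1 in 19 members (12.5%) and in 15.5% of all genes. Large gaps were found in SLC7A10 (2.04, higher in R2), SLC35B2 (1.51, higher in R2), SLC25A6 (1.48, higher in R1), SLC19A1 (1.42, higher in R1) and SLC25A22, a mitochondrial glutamate carrier named after its values were seen (1.78, higher in R1). With lame R1 as the only lame sample, 79 members were called against normal crossbred, and 65 with lame R2 alone, where the spread comes from technical duplicates only and 47.3% and 46.2% of all genes were called. With the RNA sample as a random block (correlation 0.82), 0 members were called in lame against normal crossbred, where 17 had an unadjusted p under 0.05 and duplicate averaging called 2. The same block called 3 members in normal crossbred against Tharparkar and 3 in lame against Tharparkar arrays. The first 3 were SLC7A10 (adjusted p = 0.041), SLC11A2 (0.0314) and SLC23A3 (0.0384), and the second 3 were SLC13A3 (0.0182), SLC23A3 (0.0347) and SLC6A4 (0.0471).

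**Figure D5:**
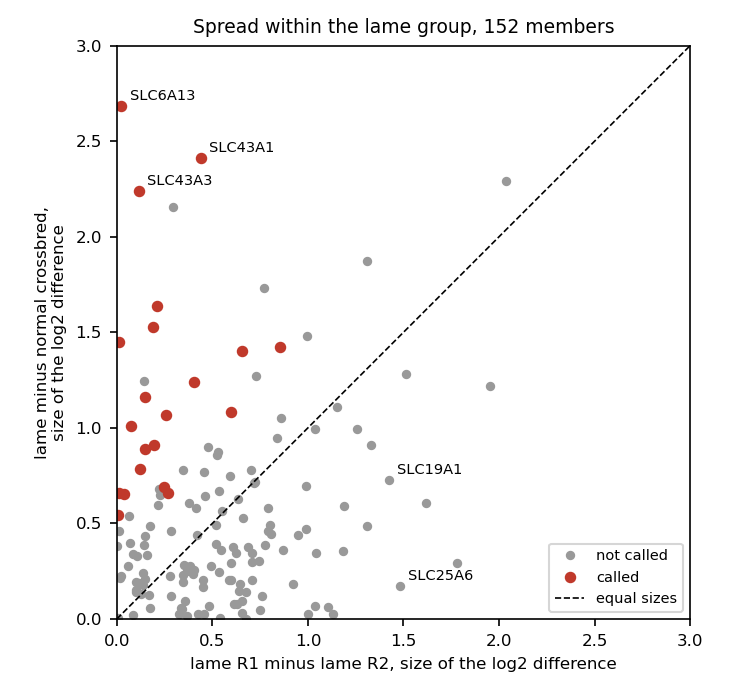
Each point is one of the 152 members; the x axis is the size of the log2 difference between the lame R1 and lame R2 means and the y axis that between the lame and normal crossbred means. Points under the dashed line, 82 in all, differ more between the 2 lame samples than between the groups. Red marks the 21 called genes, whose place is partly set by the call, since the gap enters the spread of the test.

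Genes that work with these carriers were taken as lists. Their counts are read beside the shares of all genes called higher and lower. These shares were 3.30% and 6.32% in lame against normal crossbred arrays. They were 11.7% and 6.91% in normal crossbred against Tharparkar, and 12.5% and 10.8% in lame against Tharparkar arrays. Of 20 tested genes of amino acid sensing by mTORC1, 0 were higher and 1 lower in lame against normal crossbred, 1 and 2 in normal crossbred against Tharparkar, and 0 and 3 in lame against Tharparkar arrays. The lower 3 were SESN2, a leucine sensor (-2.70, SE 0.58, adjusted p = 0.0165), and LAMTOR1 and RRAGA, which anchor mTORC1 at the lysosome (-0.91, SE 0.13, adjusted p = 0.00389, and -0.86, SE 0.12, adjusted p = 0.00369). The lame samples differed in SESN2, with means of -3.84 on lame R1 and -2.15 on lame R2 arrays. Of 13 genes of the amino acid response, 0 and 1, 0 and 4, and 0 and 5 were called in the same order. SESN2 counts in this list too. ATF3, a stress transcription factor, was lower in lame than in normal crossbred arrays by 2.0 (SE 0.27, adjusted p = 0.00561) and lower than in Tharparkar arrays by 3.5 (SE 0.27, adjusted p = 0.000338). Of 11 iron and zinc handling genes, 2 were higher and 2 lower in lame against normal crossbred arrays. MT1A and MT2A, metallothioneins that bind zinc, were lower by 1.28 (SE 0.24, adjusted p = 0.0195) and 1.25 (SE 0.29, adjusted p = 0.0391), and FLVCR2 was higher by 1.09 (SE 0.18, adjusted p = 0.012). MT1A and MT2A were also higher in normal crossbred than in Tharparkar arrays, by 1.55 and 1.65. Between lame and Tharparkar arrays they differed by 0.28 and 0.40 and were not called. The FLVCR2 mean was -0.50 in lame, -1.59 in normal crossbred and 0.54 in Tharparkar arrays.

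In normal crossbred against Tharparkar arrays, 3 iron and zinc handling genes were higher and 1 lower, and in lame against Tharparkar 2 were higher and 1 lower. MT3, a further metallothionein, was higher in both crossbred groups than in Tharparkar, by 2.26 (SE 0.23, adjusted p = 0.00134) in normal crossbred and 2.53 (SE 0.20, adjusted p = 0.000392) in lame arrays. Of 5 organic anion carriers of the SLCO family, which lie outside the naming rule, 0 were called in lame against normal crossbred, 1 higher and 1 lower in normal crossbred against Tharparkar (SLCO3A1 by 1.81, SE 0.30, adjusted p = 0.00749, and SLCO4A1 by -3.11, SE 0.66, adjusted p = 0.0177), and 1 higher in lame against Tharparkar. Genes of the ABC family, most of them ATP-driven transporters, held 0 calls of 15 in the first comparison. They held 2 higher and 1 lower in the second and 3 higher in the third. A list of accessory proteins of carriers held 1 higher of 8 in lame against normal crossbred arrays. It also takes in DIABLO, an apoptosis protein, and the subunits MPC1 and MPC2 of the mitochondrial pyruvate carrier itself. The called gene was MPC2, at 1.16 (SE 0.25, adjusted p = 0.0313). Its mean was 1.43 in lame, 0.27 in normal crossbred and 1.93 in Tharparkar arrays. BSG, the chaperone of lactate carriers, was lower in lame than in Tharparkar arrays by 0.73 (SE 0.13, adjusted p = 0.00918). Of 2 tested genes of the kinase pathway that controls chloride cotransport, 0 were called in any comparison.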

How the data were processed

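The files held the intensity of each spot, which the authors deposited from Agilent Feature Extraction with background subtraction and no scaling between arrays, per the file headers. The headers give version 12.0.3.1, whereas the submitters' processing notes give 11.5.1.1. A second deposited table gives log2 values from the authors with scale and centring not stated; it followed the same signals after scaling to the 75th percentile and centring each probe on its median, and served as an alternative. The marks for outlier spots and for spots well above background are other values that the authors deposited in the same files.

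Here each array's log2 processed signals were set relative to their 75th percentile over 43653 noncontrol probes, with 35 outlier probes left out and 0 saturated spots. Probes were named by accession from RefSeq genes on ARS-UCD2.0 (27054 matched, 16599 not), and no coordinates were used because the array annotation is on another assembly. A gene was represented by its brightest kept probe, and 72 members had more than 1.

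The model was limma 3.58.1 (R 4.3.3; 2-sided, 3 group means, 5 residual degrees of freedom), which was tested on simulated data. Named were up to 10 called members per direction and comparison, members with a bound, and a list of well-known carriers, of which 58 of 72 were kept. The members and lists were chosen with earlier results of these data known. A lower bound sets the brighter mean against the dimmer group's limit: on each array, the probe's own signal or the lowest signal well above background, whichever was higher. The alternatives were normexp (offset 50), quantile scaling, the authors' values, other filters and probe rules, duplicates averaged or as a block, a replicate block, array weights and arrays left out. The normexp fit used the median spot signal, a choice made after seeing the files. Precision is limited by the number of arrays. Some genes that the rule names are not reported here.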

Additional observations from a re-analysis of the deposited data

Results flagged for a closer look

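Of 84 named members, 2 had 1 lame array far from the other 3 by Dixon's 95% criterion on the gap over the range. By chance that criterion flags about 1 in 20 groups of independent values. The lame arrays were read as 2 pairs of duplicates, so its rate here is not known. The flagged array was lame R2_2 each time, the one with the brightest background. SLC35G1 was at -1.89 there against -3.30 to -3.11 on the other lame arrays. SLC7A7 was at 1.75 against 2.05 to 2.11.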

How the results depend on the processing

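Numbers are members called between lame and normal crossbred, normal crossbred and Tharparkar, and lame and Tharparkar arrays, in that order (21, 37 and 42 as reported). They were 8, 13 and 25 with normexp, 5, 15 and 17 of 265 with no filter on dim probes, 2, 8 and 9 with duplicates averaged (1 residual degree of freedom), 0, 3 and 3 with the RNA sample as a random block, and 87, 99 and 84 with array weights. With lame R1 arrays alone they were 79, 90 and 82, and with lame R2 arrays alone 65, 81 and 93. They stayed within 1.5 times the reported counts with quantile scaling (20, 33 and 40), the authors' values (21, 37 and 42), probes above background on all 8 arrays (15, 26 and 35 of 124) and the mean of a gene's probes (20, 49 and 48). Leaving out 1 array gave 3 to 28, 15 to 49 and 11 to 49.

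The replicate block, taken from the last number of each title and the same as the slide, gave 15, 31 and 35. That number marks runs of duplicates and not shared animals, and the first number of the lame titles was read as the RNA sample.

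Of the called differences, normexp made 12, 19 and 15 smaller by over 1.5 times without a change of sign, such as SLC35B2 between normal crossbred and Tharparkar from 4.59 to 0.38. Quantile scaling did so for 5, 0 and 13. Under normexp 15 called differences of named members changed sign. Between normal crossbred and Tharparkar these were SLC41A2 (-0.37), SLC10A7 (-0.40) and SLC13A4 (-0.65). Between lame and Tharparkar they were SLC41A2 (-0.71), SLC13A4 (-0.56), SLC43A1 (-0.37), SLC35G1 (-0.34), SLC15A1 (-0.34), SLC7A1 (-0.31), SLC22A23 (-0.31), SLC43A3 (-0.25), SLC35B2 (-0.25), SLC7A10 (-0.23), SLC5A3 (-0.22) and SLC25A15 (-0.054). The cause was not tested. Probes near background limit these values, since a dim probe has only a bound.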
